A study of Mus musculus with 12 samples.

Results

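The genes described here are the 10 named genes of the midbrain-hindbrain organizer: the engrailed genes En1 and En2, the paired box genes Pax2, Pax5 and Pax8, the homeobox genes Gbx2, Otx2 and Lmx1b, and the genes of the secreted signals Wnt1 and Fgf8. Every probe other than control probes that carried one of these names was taken, which gave 12 probes for 10 genes, out of 34891 named probes for 21186 genes. RNA came from the whole cerebellum and the whole hippocampus of WT mice and of En2-/- mice homozygous for the En2tm1Alj mutation. There were 3 mice per genotype and 1 single-colour Agilent array per mouse and tissue, 12 arrays in all. The mice were adult littermates, 3 to 5 months old and of both sexes, from heterozygous parents of a line of mixed outbred, 129Sv and C57BL/6 origin that had been bred to C57BL/6 at least 5 times. The mutation is constitutive, so each tissue had developed without the En2 homeodomain, and the cerebellum of these mice is known to be small, with fewer Purkinje cells.

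In the embryo the organizer forms where Otx2-expressing midbrain meets Gbx2-expressing hindbrain. Wnt1 and Fgf8 are secreted there, and together with Lmx1b, Pax2, Pax5, Pax8, En1 and En2 they pattern the midbrain and the cerebellum. In the adult these genes are known from a few cell types: En2 from cerebellar granule neurons, En1 and En2 from midbrain dopaminergic neurons, Otx2 from the choroid plexus, Gbx2 from the thalamus, Pax2 from young inhibitory interneurons of the cerebellum, and Lmx1b from serotonergic and dopaminergic neurons.

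Each array probe is a strand of 60 bases, and the results below turn on the probes of En2, En1, Gbx2 and Otx2. Their first 30 bases are given, 5′ to 3′ as the files list them, with a stretch of 30 bases of the Pax2 probe whose run of 8 G is in capitals. The En2 probe lies at chr5:28498468-28498528 (mm9, plus strand), the En1 probe at chr1:122504067-122504126 (plus), the Gbx2 probe at chr1:91825013-91825072 (minus), the Otx2 probe at chr14:49278096-49278155 (minus) and the Pax2 probe at chr19:44835375-44835433 (plus).
En2: ttgtaatttaagagtctgtgaataaccatc
En1: ctgcttacgaccgtgtatatatttaatttc
Gbx2: gagagtatattcattagacgggcttaaagg
Otx2: agatcattggtttcctgatttgcaaatgat
Pax2: tgaaccagctcGGGGGGGGtgtttgtgaac

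Per the study's text the En2 probe sits in the part of the 3′ UTR that the mutation leaves in place, so it reads the transcript of the mutant locus too and does not check the deletion. The exon or UTR positions of the other probes were not analysed here. The probes of En1, En2, Pax2, Otx2, Wnt1 and Fgf8 (the main one) were printed 10 times on each array, whereas Gbx2, Pax5, Lmx1b, both probes of Pax8 and the second probe of Fgf8 rested on a single spot. Values are log2 intensities after background correction by the scanner software and quantile normalization, averaged over the spots of a probe. A level compares arrays for 1 probe and does not rank 1 gene above another. A probe counted as well above background on an array where at least 50% of its spots were, and it was tested where this held on all 3 arrays of at least 1 of the groups compared.

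Between 62.3% and 73.0% of the 43379 spots of an array were well above background, and no spot was saturated. The tissues carried their defining markers. In WT mice the granule neuron gene Cbln1 and the Purkinje gene Pcp2 were higher in the cerebellum by 7.25 and 5.15 on the log2 scale. Gabra6, another granule neuron gene, was at least 1291-fold higher there and not well above background in the hippocampus. Over the alternative settings its log2 difference was as low as 8.50, below that bound. The hippocampal genes Neurod6, Prox1 and Wfs1 were lower in the cerebellum, with log2 differences of -5.79, -2.44 and -1.11. All 6 passed a limma adjusted p under 0.05. With 3 arrays per group, the number of mice limits the precision of every value below. The comparisons of tissues and of genotypes share arrays, so their values for a gene are given side by side and are not independent.

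Among the 10 genes, En2 was higher in the cerebellum than in the hippocampus of WT mice. Gbx2 was called as higher there too, but from a single spot that was not well above background in WT hippocampus. The 3 others that could be tested between tissues in WT mice, Otx2, Wnt1 and Fgf8, did not pass the test. No organizer gene passed the adjusted threshold between En2-/- and WT mice in either tissue. The nearest was Otx2 in the cerebellum, 1.86-fold higher in En2-/- mice (limma adjusted p = 0.366). The genotypes did not overlap, which was also true, in that direction, of 6.04% of all probes tested there. Pax5, Pax8, Lmx1b and En1 were at or near background on most arrays, and their values are given without a test.

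**Figure D1:**
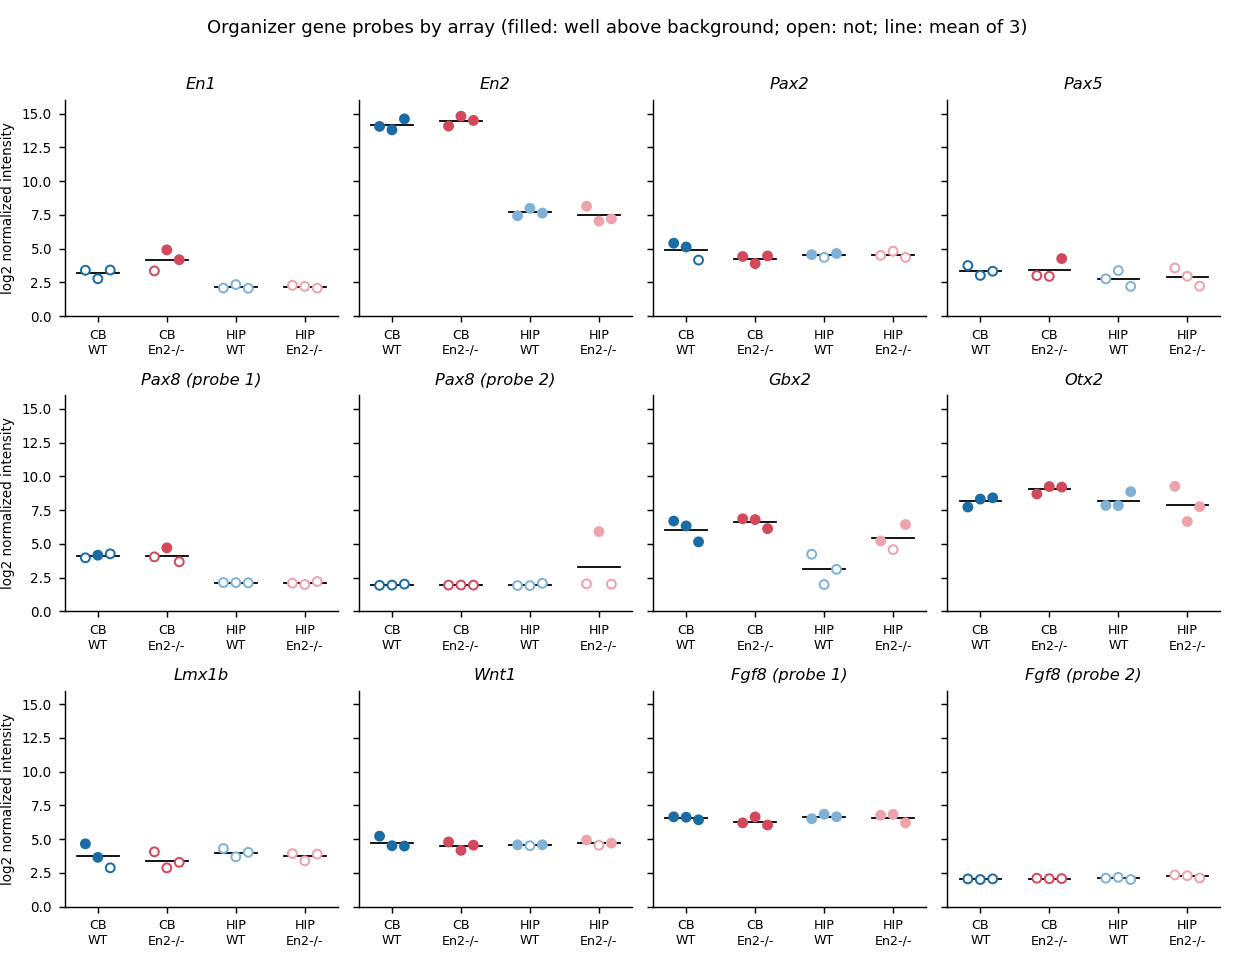
Log2 normalized intensity (vertical axis) of each of the 12 probes on each of the 12 arrays, by tissue (CB, cerebellum; HIP, hippocampus) and genotype. Points are single arrays, in replicate order from left to right within a group, filled where the probe was well above background and open where it was not, and lines are means of 3. The En2 points stand between 13.80 and 14.81 in the cerebellum and between 7.04 and 8.14 in the hippocampus.

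En2 encodes a homeodomain repressor required for the folding pattern of the cerebellum. In the hippocampus its log2 level was 7.43, 7.99 and 7.64 on the WT arrays and 8.14, 7.04 and 7.21 on the En2-/- arrays. Every spot kept was well above background on these arrays, so the probe gave a measured level in the hippocampus too. All cerebellum arrays stood far above it, with a mean of 14.15 ± 0.41 (SD, n = 3) for WT mice and of 14.46 ± 0.37 (SD, n = 3) for the mutants.

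The cerebellum exceeded the hippocampus in En2 by 6.47 on the log2 scale in WT mice (SE 0.27, 95% CI 5.84 to 7.09, limma adjusted p = 2.13e-06), which is 88.4-fold. In En2-/- mice the same difference was 7.0 (SE 0.33, 95% CI 6.22 to 7.78, limma adjusted p = 2.0e-05), which is 128-fold. Within the slides, each of which held 1 array of every group, it ran from 5.81 to 6.97 in WT and from 5.94 to 7.78 in En2-/- mice. By size it was the 34th largest increase of 25081 probes tested in WT mice and the 16th of 24794 in En2-/- mice. In whole tissue, more cells of a type that carries a transcript and more of it per cell cannot be told apart, and this holds for every gene below. From highest to lowest, the En2 levels ran from En2-/- cerebellum over WT cerebellum and WT hippocampus to En2-/- hippocampus. The genotypes were neighbours in that order within each tissue and overlapped there, with differences of 0.31 (95% CI -0.36 to 0.98) in the cerebellum and -0.23 (95% CI -0.94 to 0.49) in the hippocampus.

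By these levels the genes whose pattern was most like that of En2 over the 12 arrays were Etnppl, Pax3, Slc6a4, Cnpy1 and Car8, each with a Pearson r of 0.994 or 0.993 among 15177 genes compared. The arrays fall into the 2 tissues, so a high r needs little more than a difference between tissues, and 300 genes had an r over 0.95 over the 12 arrays.

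En1 encodes the second engrailed protein and is known from midbrain dopaminergic and some hindbrain neurons. In WT cerebellum its log2 level was 3.40, 2.77 and 3.42, with 1 of 10 spots well above background on each array. In En2-/- cerebellum it was 3.35 on replicate 1, with 0 of 10 spots, 4.91 on replicate 2, with 9 of 9, and 4.18 on replicate 3, with 8 of 10. Replicates 2 and 3 thus stood above all WT arrays while replicate 1 lay among them. Since only 2 of 3 En2-/- arrays were well above background the gene was not tested, and the mean level in En2-/- cerebellum was at least 1.46-fold higher than the WT mean taken at the detection floor. In the hippocampus all En1 levels lay between 2.07 and 2.34, with no spot well above background.

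The dopaminergic neuron list was highest on the En2-/- cerebellum arrays where En1 was. Among the WT cerebellum arrays, replicate 2 was highest in the list and lowest in En1. The 6 of its genes that had values on all 12 arrays had a mean log2 level of 8.29, 10.35 and 9.94 on the En2-/- cerebellum arrays and 8.31, 8.90 and 8.50 on the WT arrays, so the same 2 En2-/- arrays were the highest in both. Slc6a3, the dopamine transporter gene and the most variable of the 6 there, was at 5.29, 12.36 and 11.62 on the En2-/- arrays and at 5.29, 8.20 and 6.88 on the WT arrays. Pitx3, also among the 6, was at 4.77, 5.47 and 5.86 on the En2-/- arrays and at 5.62, 5.32 and 4.55 on the WT arrays. Its En2-/- replicate 2 thus lay below WT replicate 1. Of the other 3 of the 9 genes listed, Aldh1a1 had no value on WT cerebellum replicate 3, and Foxa1 and Foxa2 were not well above background on all 3 arrays of any group. The part of such neurons in the En1 values was not tested.

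**Figure D2:**
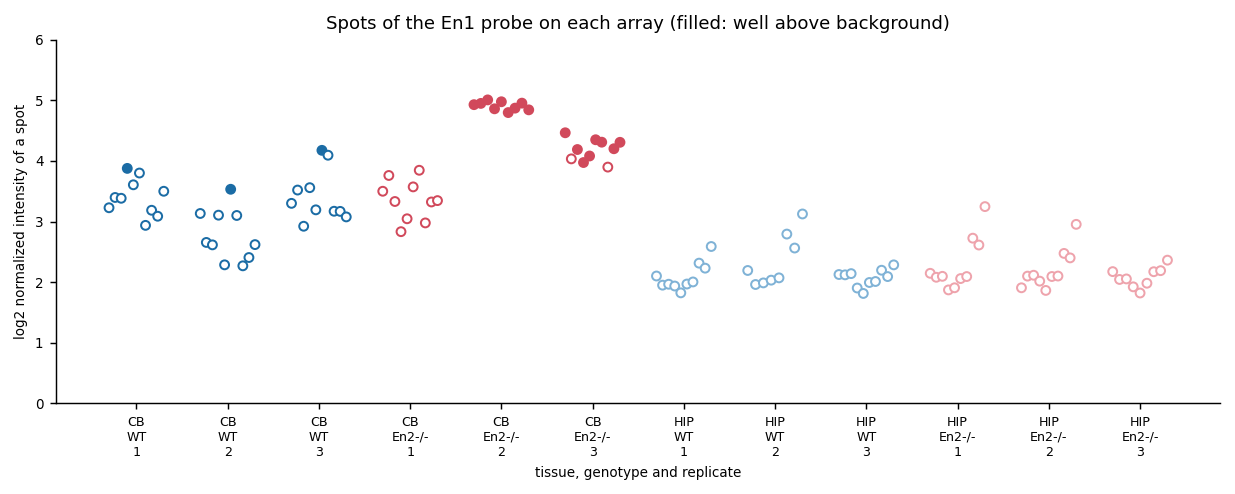
Log2 normalized intensity of each spot of the En1 probe kept on each array (vertical axis), by tissue (CB, cerebellum; HIP, hippocampus), genotype and replicate. Filled points are spots well above background and open points are not. On En2-/- cerebellum replicate 2 all 9 spots are filled and on replicate 3 there are 8 of 10, against 1 of 10 on each WT cerebellum array.

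Gbx2 encodes the homeodomain protein that sets the hindbrain side of the organizer. In the cerebellum its single spot read 6.69, 6.33 and 5.15 in WT mice and 6.86, 6.80 and 6.13 in En2-/- mice, well above background on every array. In the hippocampus it read 4.23, 1.99 and 3.12 in WT mice, never well above background, and 5.21, 4.58 and 6.44 in En2-/- mice, where replicates 1 and 3 were well above background. All WT cerebellum arrays thus stood above all WT hippocampus arrays, which held in that direction for 21.8% of all probes tested. The En2-/- hippocampus arrays lay above the WT hippocampus arrays and overlapped the cerebellum.

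In WT mice 2 of the 5 organizer probes tested, En2 and Gbx2, passed the adjusted threshold, both higher in the cerebellum, where 24.2% of all probes tested were called in either direction and 12.1% as higher. Gbx2 entered the test through the cerebellum alone, and since it was not well above background in WT hippocampus its difference has only a bound, at least 3.09-fold higher in the cerebellum (limma adjusted p = 0.00662). With the normexp background correction the log2 difference was 0.80, below that bound (limma adjusted p = 0.0359), and over all settings tried, arrays left out included, its limma adjusted p ran from 0.0028 to 0.0371. In En2-/- mice En2 alone of 6 organizer probes tested was called, where 24.5% of all probes were called and 12.6% as higher. Gbx2 was there higher in the cerebellum by 1.19 (SE 0.46, 95% CI 0.11 to 2.27, limma adjusted p = 0.104), and without En2-/- hippocampus replicate 3 by 1.70 (limma adjusted p = 0.0174).

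Between genotypes Gbx2 differed by 0.54 in the cerebellum (SE 0.41, 95% CI -0.41 to 1.49, limma adjusted p = 0.838). In the hippocampus it was not tested, and the level in En2-/- mice was at least 1.97-fold higher than the WT mean taken at the detection floor. The En2-/- and WT hippocampus arrays did not overlap, which was also true, in that direction, of 13.9% of all probes tested there. The thalamus and habenula list, for tissue that borders the hippocampus, was also higher in En2-/- mice there, as were other lists given below. Its 11 genes had mean log2 levels of 10.79, 10.31 and 10.88 on the En2-/- hippocampus arrays and of 9.83, 9.84 and 9.59 on the WT arrays. Of these 11 genes 2 were called as higher in En2-/- hippocampus and 0 as lower, against 0.842% and 0.728% of all genes. The list was chosen with earlier results of these data known, so this count is not independent support. The called genes were Ramp3, by 1.58 (SE 0.28, limma adjusted p = 0.0362), and Rgs16, by 1.21 (SE 0.21, limma adjusted p = 0.0361). Each call was lost without any 1 of 5 of the 6 arrays. In the cerebellum the list stood at 10.22 to 10.49 in En2-/- and 10.52 to 10.74 in WT mice. Other lists also stood higher in En2-/- hippocampus without overlap, those of boundary transcription factors and of Purkinje, granule, cerebellar inhibitory and dopaminergic neurons. For boundary genes the lowest En2-/- array was at 6.57 and the highest WT array at 6.24, for Purkinje genes at 9.29 and 9.18. The lists of hippocampal neurons and of engrailed co-factors and targets stood lower without overlap, and the remaining lists overlapped. The part of thalamic RNA in the Gbx2 values was not tested.

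Otx2 encodes the homeodomain protein that sets the midbrain side of the organizer, and on each of the 12 arrays all 10 of its spots were well above background. In the cerebellum its log2 level was 7.73, 8.32 and 8.41 in WT mice and 8.70, 9.25 and 9.21 in En2-/- mice. The lowest En2-/- array thus lay above the highest WT array. In the hippocampus it was 7.85, 7.84 and 8.87 in WT mice and 9.27, 6.66 and 7.76 in En2-/- mice, where the mutant arrays spread on both sides of the WT arrays.

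Of the 6 organizer probes tested between genotypes in the cerebellum 0 were called by limma, where 0.579% of all probes were, and 1, Otx2, had an unadjusted p under 0.05, as did 8.00% of all probes. Otx2 was higher in En2-/- cerebellum by 0.90 (SE 0.27, 95% CI 0.28 to 1.51, limma adjusted p = 0.366). The difference within slides was 0.96, 0.93 and 0.79. A gap between the genotypes in this direction was found for 6.04% of all probes tested in the cerebellum. The rank product, which compares the ranks of a gene in the 9 ratios of a mutant and a WT array with 100 permutations, called Otx2 as higher at the study's limit of 0.01 (permutation P = 0.00518) and no other organizer gene, where it called 5.03% of all genes. In the hippocampus the Otx2 difference was -0.29 (SE 0.61, 95% CI -1.70 to 1.12, limma adjusted p = 0.815), one of 3 organizer probes tested there, of which 0 were called and 0 had an unadjusted p under 0.05, against 2.13% of all probes called and 21.2% with such a p.

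Otx2 is a known gene of the choroid plexus, and the mean log2 level of 10 measured choroid plexus genes moved with it in part. In the cerebellum that level was 11.25, 11.49 and 11.36 in En2-/- mice and 11.00, 10.88 and 10.97 in WT mice, again without overlap. Within the WT cerebellum, replicate 1 was highest in the list and lowest in Otx2. In the hippocampus it was 13.21, 8.94 and 11.45 in En2-/- mice and 11.28, 11.90 and 12.44 in WT mice, and the arrays at both extremes, En2-/- replicates 1 and 2, were also the highest and the lowest in Otx2. Ttr, the transthyretin gene and a main product of the choroid plexus, stood at 13.10, 13.66 and 13.62 in En2-/- cerebellum and 12.29, 12.45 and 12.95 in WT cerebellum. Its difference of 0.89 was the largest of the 10 genes there, and that of Clic6, 0.14, was the smallest. Of the 10 genes 0 were called in the cerebellum, with a median difference of 0.34 against -0.03 over all genes. The part of choroid plexus RNA in the Otx2 values was not tested.

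The choroid plexus list had a median tissue difference of -1.01 in WT mice, with 4 of 10 genes called as lower in the cerebellum, against 12.2% of all genes. Between tissues Otx2 differed by -0.03 in WT mice (SE 0.34, 95% CI -0.79 to 0.74, limma adjusted p = 0.961) and by 1.16 in En2-/- mice (SE 0.59, 95% CI -0.23 to 2.54, limma adjusted p = 0.198). Without En2-/- hippocampus replicate 1, the array highest in Otx2 and in the choroid plexus list, the latter was 1.84 (limma adjusted p = 0.0157).

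**Figure D3:**
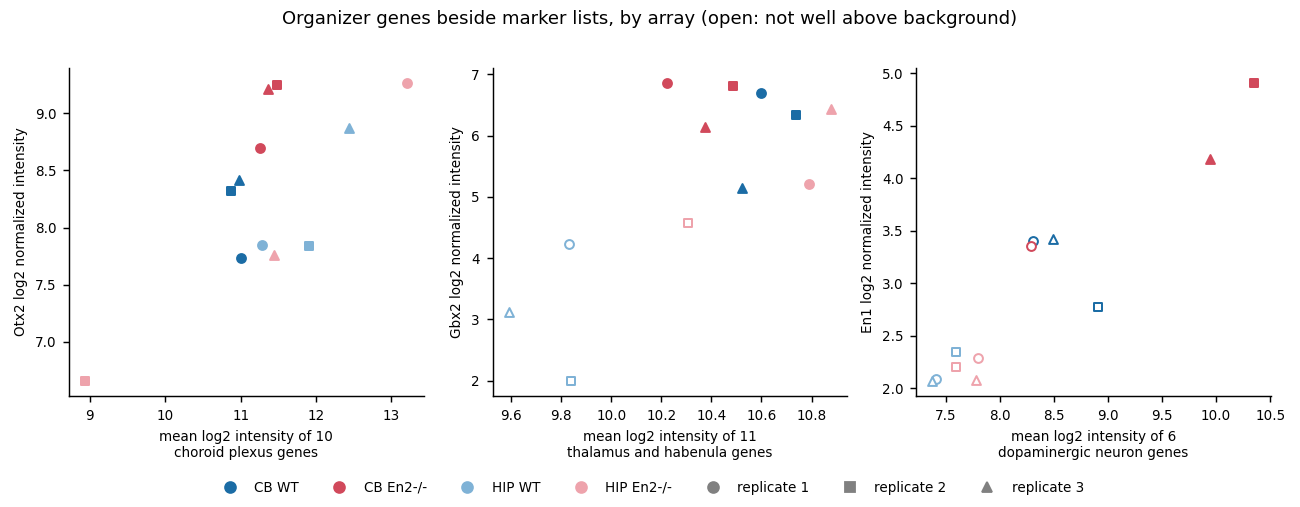
Log2 normalized intensity of Otx2, Gbx2 and En1 (vertical axes) against the mean log2 intensity of 10 choroid plexus, 11 thalamus and habenula and 6 dopaminergic neuron genes (horizontal axes), with 1 point per array. Colours are tissue (CB, cerebellum; HIP, hippocampus) and genotype, shapes are replicates, and open points were not well above background. The En2-/- hippocampus arrays span 8.94 to 13.21 on the choroid plexus axis, and the WT hippocampus arrays lie at 9.84 or lower on the thalamus axis.

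Pax2, Pax5 and Pax8 encode related paired box proteins that act together at the organizer. Pax2 was dim, at 5.41, 5.13 and 4.16 in WT cerebellum, 4.42, 3.9 and 4.46 in En2-/- cerebellum and between 4.35 and 4.81 in the hippocampus. It was well above background on 2 of 3 WT and 3 of 3 En2-/- cerebellum arrays, on 2 of 3 WT hippocampus arrays and on 0 of 3 En2-/- hippocampus arrays. The difference between genotypes in the cerebellum was -0.64 (SE 0.35, 95% CI -1.44 to 0.17, limma adjusted p = 0.734), and the 2 genotypes overlapped. Between tissues it was tested in En2-/- mice alone, with a difference of -0.30 (SE 0.22, 95% CI -0.82 to 0.23, limma adjusted p = 0.376). The list of other inhibitory interneuron genes of the cerebellum, with 8 genes, had mean levels between 11.72 and 12.11 on the WT cerebellum arrays, and the En2-/- arrays lay within that range.

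Pax8 is represented by 2 probes, listed under different transcripts, that did not behave alike. The probe at chr2:24276785-24276844 (minus strand) read between 3.68 and 4.71 in the cerebellum and between 1.99 and 2.22 in the hippocampus, so that the tissues did not overlap in either genotype. Between the tissues 21.8% of all tested probes did not overlap and were higher in the cerebellum of WT mice, and 22.0% in En2-/- mice. This probe was well above background on WT cerebellum replicate 2 and En2-/- cerebellum replicate 2 alone and was not tested. The other probe, at chr2:24328201-24328260 (minus strand), stayed between 1.91 and 2.08 on 11 arrays and read 5.92 on En2-/- hippocampus replicate 2, from a single spot. Pax5, whose probe the files place across chr4:44550354-44582908 (minus strand) and hence over distant positions, was well above background only on En2-/- cerebellum replicate 3, at 4.27, and lay between 2.21 and 3.75 on the other arrays.

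Lmx1b encodes a LIM homeodomain protein upstream of Wnt1 and Fgf8 at the organizer. It was well above background on WT cerebellum replicates 1 and 2, at 4.65 and 3.65, and on no other array, where it lay between 2.87 and 4.30. It was therefore not tested in any comparison. The serotonergic neuron list, whose cells are known to need Lmx1b, had mean levels of 8.99, 9.17 and 8.52 in WT cerebellum and 8.53, 9.15 and 8.94 in En2-/- cerebellum over the 5 genes with a value on every array. In En2-/- cerebellum Lmx1b read 4.06, 2.87 and 3.28 from a single spot that was not well above background, so the order of these arrays cannot be compared with the list. The part of such neurons in the Lmx1b values was not tested.

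Wnt1 and Fgf8 encode the secreted signals of the organizer. Wnt1 read 5.22, 4.51 and 4.49 in WT cerebellum and 4.79, 4.17 and 4.55 in En2-/- cerebellum, against 4.51 to 4.93 in the hippocampus. The 4 groups overlapped, and the intervals of the differences between groups, where it was tested, ran from no lower than -0.88 to no higher than 0.76 on the log2 scale. The main Fgf8 probe, at chr19:45811364-45811423 (minus strand), read between 6.05 and 6.84 on all 12 arrays, well above background on each. Its difference between tissues was -0.10 in WT (95% CI -0.57 to 0.37) and -0.30 in En2-/- mice (95% CI -0.88 to 0.28), and that between genotypes was -0.27 in the cerebellum (95% CI -0.79 to 0.25) and -0.07 in the hippocampus (95% CI -0.57 to 0.43). The second Fgf8 probe, at chr19:45816101-45816160 (minus strand), read between 2.01 and 2.35 and was never well above background. The probes of this gene thus disagree on whether its RNA was measured. They are listed under different transcripts, and whether they read the same RNA was not analysed.

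**Figure D4:**
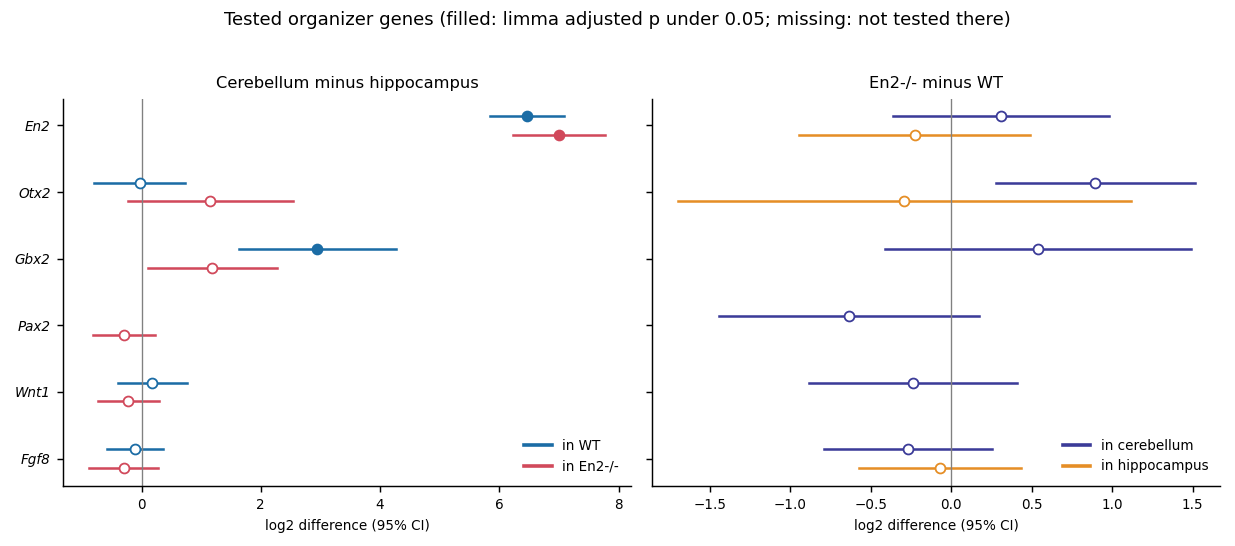
Log2 differences of the tested organizer genes between tissues (left, cerebellum minus hippocampus in WT and in En2-/- mice) and between genotypes (right, En2-/- minus WT in each tissue). Points are limma estimates with 95% confidence intervals, filled where the adjusted p was under 0.05, and a gene without a point was not tested there. En2 is filled in both genotypes at 6.47 and 7.0 and Gbx2 in WT alone, where its level in the hippocampus was not well above background, while no point is filled on the right.

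Whether the genotype effect differed between the tissues was tested for 6 organizer probes over the 12 arrays, and 0 passed, with 0 at an unadjusted p under 0.05, where 0.102% of all probes were called and 11.3% had such an unadjusted p. Otx2 differed by 1.19 (SE 0.75, 95% CI -0.45 to 2.82, limma adjusted p = 0.541). The value of Gbx2, -1.76 (limma adjusted p = 0.454), rested on WT hippocampus arrays where the gene was not well above background and was -0.26 with the normexp correction. The call of Gbx2 between tissues in WT mice and its absence in En2-/- mice are therefore not shown to differ.

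The other genes of the pathway were read from lists of FGF, Wnt and boundary genes, with the probe of highest mean standing for a gene. In WT mice 10 of 12 tested boundary transcription factors differed between tissues, 7 higher in the cerebellum and 3 lower, against 13.6% and 12.2% of all genes. Their median difference was 3.34, and that of all genes 0.07. Some of the genes counted, Irx2 and Sp8 among them, entered the test only through the tissue where they were high. The counts and the median thus rest in part on levels near background. Irx2 and Irx1, Iroquois homeobox genes of the hindbrain side, were both higher in the cerebellum. Irx1 differed by 5.89 (SE 0.26, limma adjusted p = 2.47e-06). Irx2 was well above background on 1 of 3 WT hippocampus arrays, and its difference of 6.95 (limma adjusted p = 5.41e-05) was 4.175 with the normexp correction. Sp8, a zinc finger gene that promotes Fgf8 expression, was not well above background in WT cerebellum and at least 8.19-fold higher in the hippocampus. Its log2 difference shrank to as little as -1.18 over the alternative settings, short of that bound. Hes1, a Notch effector, was lower in the cerebellum, with a difference of -1.22. The other probe of Irx1 was not well above background in the hippocampus, and the other 2 probes of Irx2 were also higher in the cerebellum.

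Of 10 FGF-induced regulators and feedback genes, 2 were higher in the cerebellum and 1 was lower, against 13.6% and 12.2% of all genes. Their median difference was -0.38. Cnpy1, which encodes a protein that assists FGF receptors at the organizer, read 11.76, 11.80 and 12.20 in WT cerebellum. It was not well above background in WT hippocampus, so that it was at least 179-fold higher in the cerebellum. Its log2 difference was as low as 5.51 over the alternative settings, below that bound. The FGF target Etv1 was higher by 0.89, and Dusp6, a phosphatase that restrains FGF signalling, was lower, with -1.17. Of 5 tested FGF8-family ligands and receptors 1 was called, Fgf18, higher by 0.88, where 13.6% of all genes were called as higher. The call of Etv1 was lost without any 1 of 4 arrays, and that of Fgf18 without any 1 of 5.

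Of 22 tested genes of canonical Wnt signalling 8 were higher in the cerebellum and 1 lower, with a median of 0.15, against 13.6% and 12.2% of all genes. Sp5, a Wnt target gene, was higher by 4.62, the receptor gene Fzd1 by 2.68, and the secreted modulator gene Dkk3 was lower, with -2.99. Of 17 engrailed co-factors and reported targets 4 were higher and 5 lower, with a median of -0.49, against the same shares of all genes. Foxp2, also a Purkinje gene, and the co-factor Pbx3 were higher by 2.94 and 2.54, and the ephrin receptor genes Epha7 and Epha5 were lower, with -3.75 and -2.79.

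**Figure D5:**
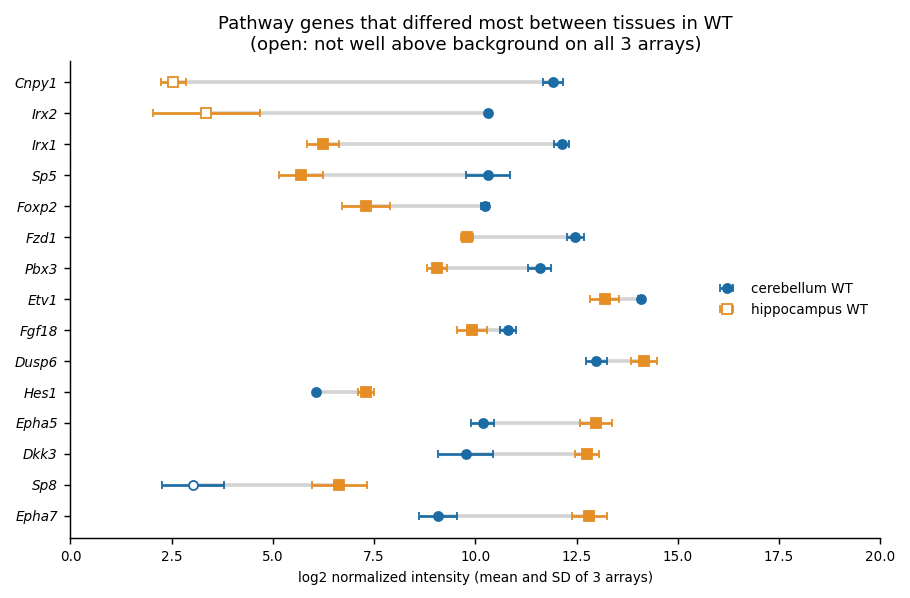
Mean log2 normalized intensity (horizontal axis) of the pathway genes with the largest called differences between tissues in WT mice, in cerebellum (circles) and hippocampus (squares), with the SD of 3 arrays. Open symbols were not well above background on all 3 arrays. Cnpy1, Irx2 and Irx1 have the widest gaps in favour of the cerebellum and Epha7 and Sp8 in favour of the hippocampus.

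Between genotypes, no pathway gene was called in the cerebellum on any of 119 tested probes, against 0.579% of all probes, or for the difference between tissues on any of 121, against 0.102%. In the hippocampus 2 of 109 tested pathway probes were higher in En2-/- mice and 5 lower, against 0.858% and 1.27% of all probes. Irx1 read 8.24, 7.84 and 8.48 in En2-/- hippocampus and 6.07, 5.96 and 6.70 in WT hippocampus, a rise of 1.94 (SE 0.26, limma adjusted p = 0.016). Its rise came with the higher levels of the thalamus and habenula list and of the other lists named with it above. Their part in the rise was not tested. Irx2, on its probe of highest mean, stood at 5.27, 5.57 and 6.77 in En2-/- and at 3.46, 1.98 and 4.61 in WT hippocampus and was not called (limma adjusted p = 0.0937).

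The FGF receptor gene Fgfr1 fell in En2-/- hippocampus on 3 of its 4 probes, by 1.14, 1.43 and 1.21 on the log2 scale (limma adjusted p = 0.0345, 0.0288 and 0.0405), while the 4th differed by -0.31 (limma adjusted p = 0.779). Map1b, a microtubule protein gene reported as an engrailed target, fell on 1 of 2 probes by 1.71 (SE 0.23, limma adjusted p = 0.0166) and differed by -0.54 on the other (limma adjusted p = 0.284). The FGF target Etv5 fell on its dimmer probe by 1.06 (limma adjusted p = 0.029) and differed by -0.68 on the other (limma adjusted p = 0.381). Fgfr4 rose on 1 of 3 probes by 1.14 (limma adjusted p = 0.0485), with 0.59 and -0.52 on the others. Each of these calls was lost when some single arrays were left out, in 3 of 6 cases for Irx1 and for Map1b, in 5 of 6 for each Fgfr1 probe and in all 6 for Etv5 and Fgfr4, with limma adjusted p up to 0.159. All of them were also lost with no filter on dim probes, and those of Etv5 and Fgfr4 with the normexp correction and in the authors' log2 values as well. Over the alternative settings that kept all arrays, Irx1 lost its call in 1 of 10 and Map1b in 2 of 10. Each Fgfr1 probe lost it in 3 (limma adjusted p up to 0.288), Etv5 in 5 of 9 and Fgfr4 in 6 of 8.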

How the data were processed

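The authors deposited, per the file headers, the Agilent Feature Extraction 10.7.3.1 intensity of every spot of each array (linear scale, background corrected within the array, probe positions on mm9). The authors also deposited a table of processed log2 values (filtered with Agi4x44PreProcess and quantile normalized, per the study's methods), which held 5 organizer probes in the hippocampus and 6 in the cerebellum and was used as an alternative within a tissue. Here, control spots and 110 to 331 outlier spots per array were left out, log2 intensities were quantile normalized over 12 arrays and the spots of a probe averaged. Groups were compared in R 4.3.3 with limma 3.58.1, on the arrays of both groups (12 for the difference between tissues), with Benjamini-Hochberg adjustment over all tested probes and a threshold of 0.05. A bound ("at least") sets the dim group at the higher of its own signal and the lowest signal well above background on that array, averaged over arrays. Bounds were computed with the main processing alone and can be smaller under another. Figures used Python 3.11.15 and matplotlib 3.10.9. The fit was tested on simulated data. A limma p-value sets a difference against the spread between the arrays of a group. With 1 array per mouse and tissue, mouse and handling cannot be told apart in that spread. Probes carried the gene names of the cerebellum files for all arrays. The text names the 10 genes, pathway genes called between genotypes, per list the 2 with the largest called differences in each direction between WT tissues, list markers beside a member, and the 5 genes most like En2 over the 12 arrays (those over the WT arrays alone are not reported here). Fgfr4 and Etv5 come in through probes other than the one standing for the gene. The members and lists were chosen with earlier results of these data known. Which cerebellum and hippocampus came from the same mouse is not given in the sources used here, so tissues were compared as separate samples. Alternatives were other background corrections, normalizations, filters and tests, 1 probe per gene, a block for the slide and dropping each array in turn.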

Additional observations from a re-analysis of the deposited data

How the results depend on the processing

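Of 399 values of organizer genes recomputed under other settings or with an array left out, 387 kept their direction and their side of the threshold. The 10 that turned were all uncalled. With the 75th percentile in place of quantiles, the WT tissue difference became 0.0135 for Fgf8 and 0.0073 for Otx2. With an array left out, the WT tissue difference of Otx2 ran from -0.2031 to 0.31, above 0 without WT hippocampus replicate 3 (0.31) or WT cerebellum replicate 1 (0.18), and without the latter that of Wnt1 became -0.0584 (up to 0.31 without another array). The genotype difference of Wnt1 in the cerebellum ran from -0.38 to 0.0051 (without WT replicate 1). In the hippocampus that of Fgf8 ran from -0.185 to 0.13, above 0 without WT replicate 2 (0.0153) or En2-/- replicate 3 (0.13), and that of Otx2 from -0.98 to 0.33, above 0 without WT replicate 3 (0.0533) or En2-/- replicate 2 (0.33).

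The number of organizer probes called between tissues in WT mice was 2. It was 4 with no filter on dim probes, which added En1 (1.03) and a Pax8 probe (2.0), 1 when a probe had to be well above background on every array, which leaves Gbx2 out, and 2 to 3 with an array left out, Pax2 (0.75) being added without WT cerebellum replicate 3. In En2-/- mice it was 1, 3 with no filter, which added En1 (1.96) and the same Pax8 probe (2.04), and 1 to 2 with an array left out, where En1 came in without En2-/- cerebellum replicate 1 (2.36). Between genotypes it was 0 under every limma setting, arrays left out included, and 1 by the rank product in the cerebellum. The authors' log2 values were not run across tissues, since their table holds different probes for each.

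The replicate number is that of the slide. Deviations of same-slide arrays from their group means correlated with a median r of 0.05 (-0.29 to 0.43 over 18 pairs), so the numbers do not show a pairing. With the replicate block 2, 1, 0, 0 and 0 organizer probes were called in the 5 comparisons, as without it. It lowered the probes called between genotypes in the hippocampus from 507 to 134, where Irx1 and Map1b were still called and Fgfr1, Etv5, Fgfr4 and Rgs16 were not.

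Over the other limma settings the probes called in all ran from 58 to 232 in the cerebellum and 134 to 510 in the hippocampus, and from 53 to 110 and 81 to 356 with an array left out (main counts 145 and 507). For the difference between tissues they ran from 10 to 50 (26). Of 429 values of the other named genes 79 lost their call and 0 turned.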
